A study of Oryza sativa with 200 samples.

Results

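The on/off genes of rice chromosomes 1 to 5 are genes whose leaf RNA reads were plainly counted in some inbred lines and absent or nearly absent in others. A gene was counted as on in a line at 2 CPM or more (CPM, the count divided by the library's total count, times 1000000), as off under 0.2 CPM, and as between otherwise. A member had at least 10 lines on, at least 10 lines off and at most 10 lines between in each of 2 years, which 68 of the 20418 genes of these chromosomes met. The members were chosen by these measured CPM levels in both years, so their levels and their shares of lines on are descriptions and carry no test.

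The lines come from JAM2, a rice (Oryza sativa) population whose 4 parents are Toyomeki, Tachiharuka, Iwaidawara and Akidawara. Leaves of 100 lines were sampled in 2022 at generation F5 and again in 2023 at generation F6, so that the same line number gives 2 readings. Each line stood in the paddy as 33 plants in a single plot with no replicate, under chemical fertilizer with 56 kg of nitrogen per ha in both years. A fully expanded leaf was cut between 9:00 and 11:00 on 1 July 2022 and on 29 June 2023, 6 weeks after transplanting, and gave 1 poly(A) RNA library per line and year. The year groups therefore differ in season and generation together, and these cannot be told apart. Libraries of the parents were not analysed here.

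A multi-parent population of this kind intercrosses several varieties and then inbreeds the offspring, so that each line carries a mosaic of parental segments and most loci are fixed for 1 parent's copy. Genes that lie close to each other on a chromosome tend to stay together in such a cross, while genes far apart or on different chromosomes are shuffled. In crops, varieties often differ in whole genes or in stretches that control them, and such differences can show in RNA as presence in some lines and absence in others. The locus numbers within the gene identifiers follow the order of the genes along the chromosome, and gaps are given here in those numbers. They are an uneven scale. A span of 187600 numbers on chromosome 1 held 371 annotated loci, while a span of 109900 on chromosome 3 held 697. The identifiers are not paired with names or functions in the files used, so members are named by identifier and no role is given. In leaf RNA, fewer cells that use a gene and less of its RNA per cell cannot be told apart.

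Library totals ran from 3254834 to 37774023 counts in 2022 (median 7768777) and from 3729294 to 16881699 in 2023 (median 11272411). In the smallest library 2 CPM was 6.51 counts and 0.2 CPM was 0.651 counts, so an off call there required 0 counts. The leaf label was met by the photosynthesis genes: CAB2R (Os01g0600900), a chlorophyll binding protein of the light harvesting complex, lay between 2125 and 20321 CPM in 2022. The root silicon exporter LSI2 (Os03g0107300) was at 0 CPM in every 2022 library and reached at most 0.203 CPM in 2023, while the other root marker, the silicon channel LSI1 (Os02g0745100), lay between 9.83 and 27.9 CPM in 2022. The flower gene OsMADS1 (Os03g0215400) lay between 0 and 28.9 CPM in 2022, with a median of 1.34. The other panicle and flower marker, OsMADS15 (Os07g0108900), had a median of 0 and at most 1.84 CPM in 2022. The part of these root and flower markers in any result below was not tested.

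The members were spread unevenly over the chromosomes. Chromosome 1 held 24, chromosome 2 held 16, chromosome 3 held 8, chromosome 4 held 16 and chromosome 5 held 4. Per 1000 annotated loci this was 4.55 on chromosome 1, 3.80 on chromosome 2, 1.76 on chromosome 3, 4.77 on chromosome 4 and 1.32 on chromosome 5. Over the 5 chromosomes the density was 3.33 per 1000 loci, against 8.89 per 1000 over chromosomes 6 to 12, which held 155 such genes. In 2022 alone 71 genes of chromosomes 1 to 5 met the limits and in 2023 alone 73 did, of which 3 and 5 failed in the other year. Of the members, 12 (17.6%) had a locus number that does not end in 00, against 20.5% of all genes of these chromosomes.

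At the limit of 10 lines between, the members nearest inside were Os02g0282900 (10 lines between in 2022 and 2 in 2023), Os04g0321100 (9 and 10) and Os05g0571300 (10 and 3). The genes nearest outside were Os02g0154200 (11 and 5), Os02g0163300 (7 and 12) and Os02g0801450 (12 and 11). Os02g0163300 and Os02g0801450 stand beside members: the former precedes Os02g0163500, and the latter lies between Os02g0801200 and Os02g0802301.

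The shares of lines on covered a wide range. In 2022, 15 members were on in at most 35 of the 100 lines, 22 in 36 to 64 lines and 31 in 65 or more, and the same 3 counts were found in 2023. Only 2 members were on in 50 to 59 lines in 2022, whereas 16 were on in 40 to 49 lines and 17 in 80 to 90, counts in which members of a co-segregating segment (described below) enter together. The scarcest members were Os04g0370300, on in 15 lines in 2022 and 17 in 2023, Os01g0380800, on in 16 and 15, and Os03g0409600, on in 17 and 13. The most common were Os01g0391100, Os01g0508300 and Os03g0735400, each on in 85 lines in 2022 and 84 in 2023. A line had between 27 and 52 of the 68 members on, with a median of 39, in both years.

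**Figure D1:**
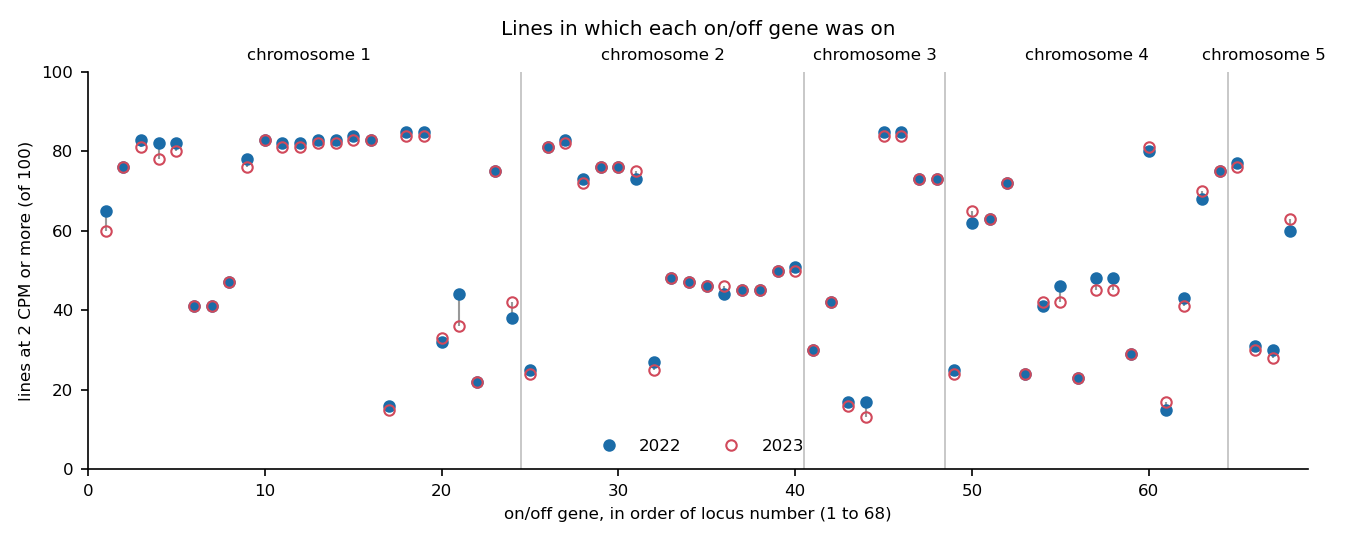
Number of lines (of 100) in which each of the 68 on/off genes was at 2 CPM or more, with genes in order of locus number and vertical lines between chromosomes; filled points are 2022 and open points 2023. Runs of points at 1 height, such as the members at 78 to 85 lines in the middle of chromosome 1, are genes on in nearly the same number of lines, and the years differ by at most 8 lines.

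The number of lines on hardly moved between the years. It was equal in 27 members, lower in 2023 in 31 and higher in 10, with a median difference of 1 line. The largest difference was in Os01g0520800, which was on in 44 lines in 2022 and 36 in 2023, with 1 and 7 lines between.

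Most lines called off had 0 counts of the gene. Of the 2784 off calls in 2022, 93.7% were libraries with 0 counts, and of the 2865 in 2023, 93.1%. The rule in large part sets these shares, since its limit of 0.2 CPM allows an off call few counts. That limit was 0.651 counts in the smallest library of 2022 and 0.746 in the smallest of 2023. Between calls made up 2.53% of all gene by line calls in 2022 and 1.93% in 2023. The medians over on lines ran from 3.16 to 180.5 CPM over the members in 2022 and from 2.81 to 260.3 CPM in 2023.

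The widest gap between the states was in Os01g0361000. Its 83 lines on in 2022 lay between 70.7 and 241 CPM with a median of 180.5, and its 82 lines on in 2023 lay between 125.0 and 342.2 CPM with a median of 260.3. Its 10 lines off in 2022 lay at or below 0.160 CPM and its 12 lines off in 2023 at or below 0.199 CPM. The on and off groups stood far apart, and even the lines between the thresholds reached only 1.51 CPM in 2022 and 0.956 CPM in 2023. Os03g0855700 was on in 73 lines in both years, at 36.8 to 234 CPM (median 167.6) in 2022 and 11.2 to 207 CPM (median 153.7) in 2023. In its 27 off lines it reached at most 0.160 and 0.181 CPM. Os02g0615400 was on in 27 lines in 2022, from 9.82 to 237 CPM with a median of 159.8, and in 25 lines in 2023, from 82.6 to 219 CPM with a median of 145.5. Its lowest 2022 line, at 9.82 CPM, stood far under the rest and was off in 2023.

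The same lines were on in both years. Of 6528 gene by line calls that were on or off in both years, 6493 agreed (99.5%). The two-sided Fisher exact test of on against off over the lines, with Benjamini-Hochberg adjustment over 445 genes of all chromosomes, was passed by 68 of 68 members, the largest adjusted p being 1.42e-09. Among all 445 genes 95.5% passed, so the members did not stand out by this count. In 40 members every line called in both years agreed. In 5 of these all 100 lines were called and agreed, namely Os01g0148100, Os01g0780900, Os03g0247300, Os03g0855700 and Os04g0166300. The fewest agreeing lines were in Os04g0321100 (80 of 82 called), Os03g0409600 (85 of 86) and Os04g0630500 (87 of 87), where lines between the thresholds, and not disagreement, made up most of the shortfall. As a share of called lines, agreement was lowest in Os04g0323800 (94 of 97, 96.9%) and Os04g0330200 (97 of 100). In each of these 3 lines disagreed.

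The lines that disagreed all moved 1 way. There were 35 gene by line switches, in 28 members and 16 lines, and each was on in 2022 and off in 2023, with 0 in the other direction. In 30 of the 35 the 2023 library had 0 counts, and the highest count was 2. The 2022 counts were 12 or more, and the 2023 totals of these libraries were 4203975 to 15211096 counts. Chromosomes 6 to 12 held 155 on/off genes, against 68 here. In the same 100 lines they gave 152 switches from on to off and 1 from off to on. There, 7816 calls were on and 7018 were off in both years, against 3754 and 2739 here. A switch there was found in 45 of the 100 lines, and in 7 of the 16 lines that switched here. With a single threshold of 1 CPM and no line left out, there were 54 switches from on to off and 8 from off to on on chromosomes 1 to 5.

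Before they went off, the switching lines had mostly stood low among the on lines. In 34 of the 35 switches the 2022 level was under the gene's median over on lines, and the median over switches was 53.2% of it, with a range of 6.14 to 165%. The 35 switches came from only 16 lines, 7 of them from line J2_298, so they are not independent cases. The exception above the median was line J2_312 in Os04g0321100, at 9.56 CPM against a median of 5.80.

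**Figure D2:**
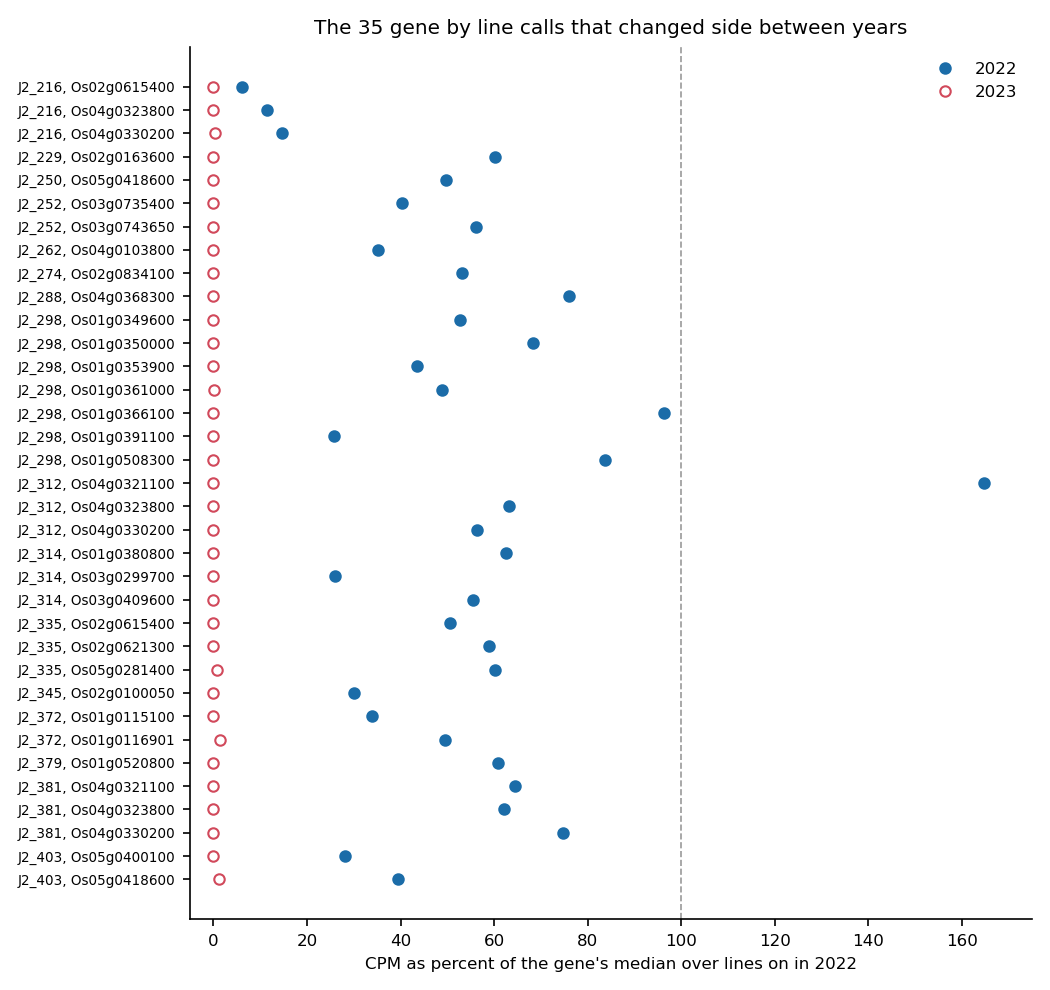
The 35 gene by line calls that changed side, each as CPM in percent of that gene's median over lines on in 2022; filled points are 2022 and open points 2023, and the dashed line marks 100%. The 2022 points lie under 100% in 34 of 35 cases and the 2023 points lie at or near 0. The 35 calls come from 16 lines and are not independent.

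Switches often came in runs of neighbours. Of the 16 lines, 9 had at least 2 switches and 7 had 1. Line J2_298 lost 7 members of chromosome 1 between Os01g0349600 and Os01g0508300. In that line Os01g0361000 fell from 88.0 CPM in 2022 to 0.199 CPM in 2023, and Os01g0349600 from 16.8 to 0. The members just before this stretch, Os01g0320700 and Os01g0324400, stayed on at 2.48 and 10.4 CPM in 2023. Os01g0380800, which lies inside the stretch and is on in the lines where its neighbours are off, also stayed on, at 4.09 CPM in 2022 and 4.77 in 2023.

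Line J2_314 showed the reverse. In 2022 it had Os01g0380800 (6.02 CPM) on beside most other members from Os01g0320700 to Os01g0508300, except Os01g0320700 and Os01g0373400, which were between the thresholds at 0.709 and 1.95 CPM. In 2023 Os01g0380800 was at 0 while Os01g0361000 went from 70.7 to 211.2 CPM. In the same line Os03g0299700 went from 13.8 CPM to 0 and Os03g0409600 from 2.13 to 0. Lines J2_312 and J2_381 lost Os04g0321100, Os04g0323800 and Os04g0330200, and line J2_216 lost Os04g0323800 and Os04g0330200 while Os04g0321100 went from 1.15 to 0.0790 CPM. Line J2_335 lost Os02g0615400 (80.7 CPM to 0), its neighbour Os02g0621300 (4.20 CPM to 0) and Os05g0281400 (5.91 to 0.0669 CPM).

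In 2 lines a member switched off while its neighbour in opposite phase stood higher in 2023. In line J2_274 Os02g0834100 went from 2.70 CPM to 0 and Os02g0824800 from 10.7 to 22.0 CPM, the latter close to its 2023 median over on lines of 20.5. In line J2_288 Os04g0368300 went from 4.56 CPM to 0 and Os04g0370300 from 1.43 to 5.07 CPM, its highest level in any line of 2023. These 2 cases and those of lines J2_298 and J2_314 were chosen after their values were seen.

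**Figure D3:**
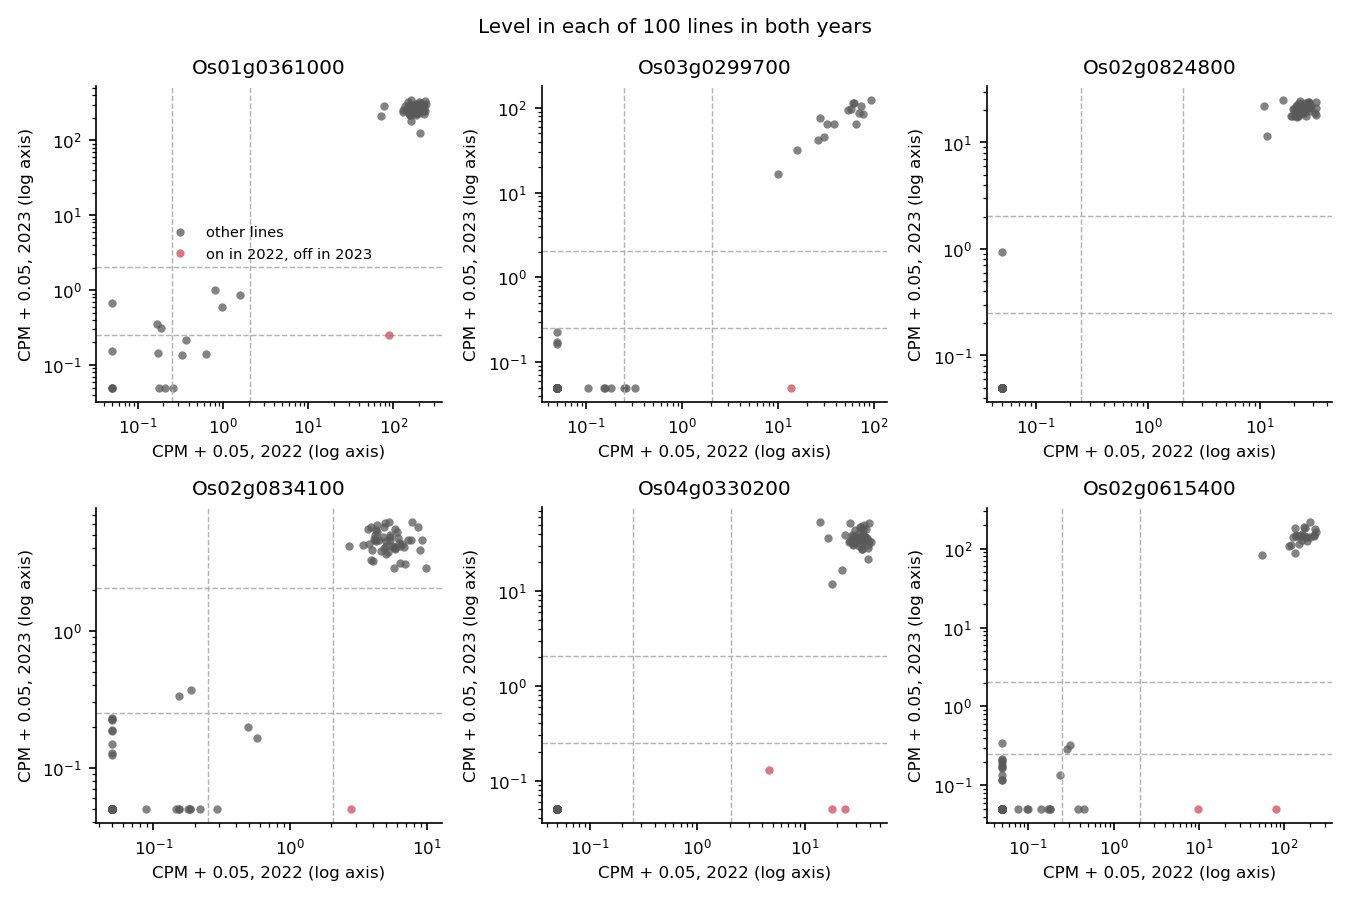
Level of 6 on/off genes in each of 100 lines, 2022 on the horizontal and 2023 on the vertical axis, both as CPM plus 0.05 on log axes; dashed lines mark 0.2 and 2 CPM, and red points are lines on in 2022 and off in 2023. Lines gather at upper right (on in both years) and lower left (off in both), and in each panel 0 lines are off in 2022 and on in 2023.

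Members close to each other co-segregated. The likeness of a pair was measured with phi, the correlation of on and off over lines called in both, which is 1 where the same lines are on and -1 where opposite lines are on. The median absolute phi in 2022 was 1.00 over the 11 pairs within 1000 locus numbers, 0.952 over the 32 pairs further apart but within 10000, 0.421 over the 127 pairs beyond that but within 100000, and 0.119 over the other 380 pairs of a chromosome. Over the 1728 pairs on different chromosomes it was 0.0800. Pairs share lines and libraries, so these values are a description.

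Joining members of a chromosome at an absolute phi of 0.8 or more in 2022 gave 15 segments with 47 members, and 21 members stood alone. Of the segments, 10 had 2 members and 5 had 3 or more. The 78 pairs at or past 0.8 in 2022 had a median absolute phi of 0.941 then and 0.934 in 2023. In 2023 75 of the 78 were still at 0.8 or more, the lowest was 0.743, and all 78 kept their sign. The second year reads the same lines again and is not an independent cross.

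**Figure D4:**
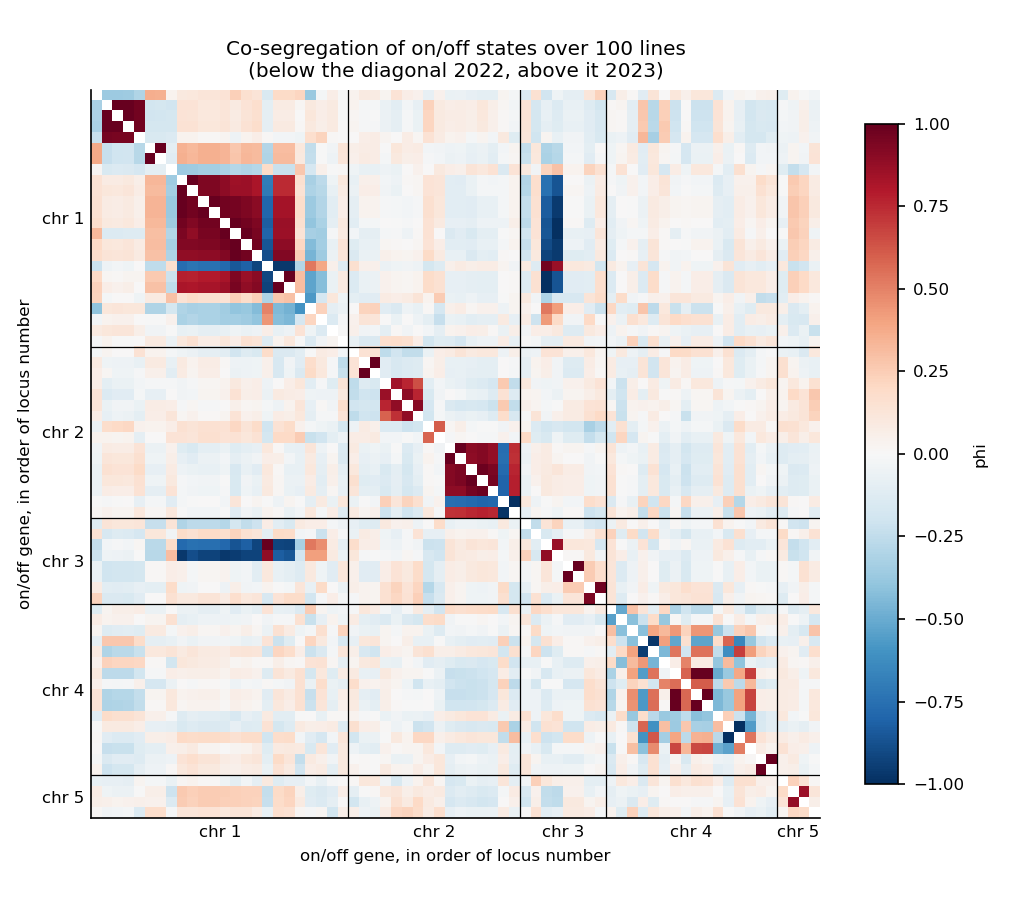
Phi of on/off states for each pair of the 68 genes, in order of locus number, with 2022 below the diagonal and 2023 above it; red is the same lines on (phi to 1), blue is opposite lines on (phi to -1), and black lines separate chromosomes. Red blocks along the diagonal are the co-segregating segments, a blue stripe within a block is a member in opposite phase, and the blocks between chromosomes 1 and 3 are the only ones at an absolute phi of 0.8 or more off the chromosome.

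The largest segment ran from Os01g0320700 to Os01g0508300 on chromosome 1 and held 11 members among 371 annotated loci, 171 of which reached a mean of 1 CPM. In 2022 its members other than Os01g0380800 were on in 78 to 85 lines. Of the 84 lines called in all 11 members in 2022, 76 had these 10 on and Os01g0380800 off, 6 had the reverse, and 2 changed once along the segment. In 2023, 87 lines were called throughout, of which 73 had the common state, 7 had the reverse, and 7 were mixed. Os01g0391100 and Os01g0508300, which lie 117200 locus numbers apart, were on in the same lines in both years (phi 1.00, 97 lines called in 2022 and 100 in 2023).

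Os01g0380800 was the opposite member of this segment. Its 16 lines on in 2022 lay between 4.09 and 15.6 CPM with a median of 9.63, its 15 lines on in 2023 lay between 4.77 and 11.0 CPM with a median of 7.55, and its 83 off lines of 2022 were at 0 counts. With its neighbour Os01g0391100 it was on together in 2 lines in 2022 and in 0 lines in 2023. Those were lines J2_298 and J2_314, which dropped opposite sides of the segment.

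The same pattern of lines appeared in 2 genes whose identifiers place them on chromosome 3. Where their sequence lies in these lines was not tested. Os03g0299700, on in 17 lines in 2022 at 9.90 to 94.0 CPM (median 53.3) and in 16 lines in 2023 at 16.6 to 123 CPM (median 81.2), was on in the lines where Os01g0380800 was on. Their states were the same in 97 of 97 lines in 2022 (phi 1.00) and in 99 of 100 in 2023 (phi 0.963). The line that differed in 2023 was line J2_270, in which Os01g0380800 was between the thresholds at 1.11 CPM in 2022 and at 0 in 2023, while Os03g0299700 was on at 53.3 and 93.5 CPM.

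Against Os01g0391100 and Os01g0508300 the phi of Os03g0299700 was -1 over 100 lines in 2023, so it was on exactly where they were off. Os03g0409600, 109900 locus numbers further along, had a phi of -0.964 with Os01g0353900 in 2022 and -1 in 2023. Of the 22 pairs of these 2 chromosome 3 members with the chromosome 1 segment, 17 were at an absolute phi of 0.8 or more in 2022 and 20 in 2023. Among the other 1706 pairs on different chromosomes 0 reached 0.8, and the highest was 0.528. Against the on/off genes of chromosomes 6 to 12 the highest of 10540 pairs was 0.372. Joining over all 5 chromosomes therefore gave 14 groups, the largest with 11 members of chromosome 1 and 2 of chromosome 3. The 2 chromosome 3 members had a phi of 0.890 with each other in 2022 although 697 annotated loci lie in their span.

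Among the other segments, 3 had 3 to 5 members in a single phase and few mixed lines. The segment Os02g0801200 to Os02g0808500 held 5 members on in 44 to 47 lines in 2022, and of 92 lines called throughout, 42 were on, 46 were off and 4 changed once. In 2023 the counts were 42 on, 48 off and 7 mixed of 97. Its last member Os02g0808500 stood near the limit of 0.8 with Os02g0824800 of the next segment, in opposite phase. Their phi was -0.782 in 2022, just short of joining the 2 segments, and -0.8004 in 2023. Its leading member Os02g0808500 was on in 45 lines in both years, at 6.20 to 16.7 CPM (median 10.4) in 2022 and 7.16 to 16.9 CPM (median 10.7) in 2023, and its 54 and 55 off lines were at 0 counts. The segment Os01g0114100 to Os01g0116901 held 4 members on in 76 to 83 lines, and 1 of its 87 fully called lines was mixed in each year. The segment Os04g0321100 to Os04g0330200 held 3 members on in 46 to 48 lines, and 0 of the 88 lines called in 2022 and 0 of the 90 in 2023 were mixed. Os04g0330200 was on there in 48 lines in 2022, at 4.59 to 41.0 CPM (median 31.5), and in 45 lines in 2023, at 11.9 to 53.6 CPM (median 35.2).

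The loosest segment was Os02g0231600 to Os02g0282900, whose 4 members span 51300 locus numbers. Of 85 lines called throughout in 2022, 65 were on, 10 were off and 10 changed once. In 2023 the counts were 66, 14 and 11 of 91. Its end members had a phi of 0.589 in 2022 and were joined only through those between them.

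Pairs within 1000 locus numbers included 3 segments with no mixed line in either year. Os01g0148100 and Os01g0148400 were on in the same 41 lines and off in the same 59 in 2022. Os02g0163500 and Os02g0163600, and Os04g0630500 and Os04g0630551, likewise had 0 mixed lines among 97 and 90 called in 2022. Os03g0735400 and Os03g0743650, 8250 locus numbers apart, were on in the same 85 lines in 2022 and the same 84 in 2023, line J2_252 having dropped both.

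Opposite phase was found in 4 segments. Besides Os01g0380800 these were Os02g0824800 with Os02g0834100, Os04g0197500 with Os04g0202500, and Os04g0368300 with Os04g0370300. Os02g0824800 was on in 50 lines in 2022, at 10.7 to 31.7 CPM (median 22.8), and its 50 off lines were at 0 counts. Os02g0834100 was on in 51 lines, at 2.62 to 9.74 CPM (median 5.09). Of 97 lines called in both in 2022, 46 had the former on alone, 50 the latter alone, 1 had both and 0 had neither. In 2023 the counts were 48, 49, 0 and 0, so that each called line had exactly 1 of the pair on.

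Some close neighbours fell short of an absolute phi of 0.8, with lines that were nested or exclusive. Of the 63 neighbouring pairs on a chromosome, 32 had an absolute phi under 0.8 in 2022, 5 of them within 10000 locus numbers. In 2022 the absolute phi of these 5 lay between 0.513 and 0.601. In all 5 exactly 1 of the 4 combinations of on and off was empty, in both years, against 2 of the 27 pairs further apart with an empty combination in both years. The 24 called lines with Os02g0615400 on had Os02g0621300 on too, which was on in a further 23 lines in 2022 and 22 in 2023. Likewise Os04g0323500 was on only among lines with Os04g0321100 and Os04g0323800 on (22 of 22 and 23 of 23 called lines in 2022), and Os04g0370300 only among lines with Os04g0372201 on (15 of 15). The fifth pair was exclusive: for Os01g0520180 and Os01g0520800, 0 of 98 lines in 2022 and 0 of 93 in 2023 had both on, while 24 and 25 had neither.

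Lines between the thresholds could be read against their segment, with the state of a partner in opposite phase reversed. In 2022, 75 between calls stood in lines whose other segment members then all read off, and 35 in lines where they all read on. A further 13 stood in mixed lines and 2 had no partner called. In 2023 the counts were 47 off, 42 on and 3 mixed. The strongly expressed Os01g0361000 gave between calls of 0.210 to 1.51 CPM in 4 lines of 2022 whose partners read off. These lay far under the 70.7 CPM of its lowest on line. The weakly expressed Os01g0114100 gave between calls of 0.970 to 1.99 CPM in 7 lines of 2022 whose partners were on, next to its lowest on line at 2.01 CPM.

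The change in level between the years was compared next. The rule did not use that change. It set limits on CPM in each year, however, so the changes that a weakly expressed member could show were limited. Shares of members called carry that limit. The edgeR quasi-likelihood test on all 200 libraries, with Benjamini-Hochberg adjustment over 18674 genes, could be run on 53 members that passed the filter on low counts. Of these, 2 were higher and 1 lower in 2023, against 34.3% higher, 36.9% lower and 71.2% in either direction among all genes tested. Os04g0368300 rose by 1.04 on the log2 scale (SE 0.20, adjusted p = 1.51e-06 in edgeR). Os01g0361000 rose by 0.67 (SE 0.25, edgeR adjusted p = 0.0131) and Os01g0373400 fell by 0.48 (SE 0.18, edgeR adjusted p = 0.0126). On and off lines together give these genes a wide spread. With the line number as a block, which pairs the 2 libraries of a line, 10 members were higher and 15 lower, or 25 in all, against 35.6%, 38.5% and 74.1% of all genes.

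Within the lines that were on in both years the change could be read without the off lines. An exact two-sided sign test over those lines, adjusted over 17033 genes of all chromosomes, called 19 members higher in 2023 and 14 lower, and 35 did not pass. Among all genes tested 32.6% were higher and 31.4% lower, beside 27.9% and 20.6% of the members. The members were tested over 11 to 84 lines, while a gene on in all lines was tested over 100. A test over fewer lines calls less readily, so these shares do not rest on equal power. The median change over members was -0.0066 on the log2 scale and over all genes 0.0044. Scaling by total counts in place of TMM factors shifted the median over all genes to -0.11, and 10 members (14.7%) were then higher and 24 (35.3%) lower, beside 18.3% and 49.7% of all genes. Of the 33 members called with TMM, 24 were called in the same direction by total counts, and Os05g0571300 turned from 0.12 to -0.0066.

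The largest rise was in Os04g0368300, which was higher in 2023 in 77 of 79 lines, with means of 6.22 ± 1.84 CPM in 2022 and 12.8 ± 4.05 CPM in 2023 (SD, n = 79) and a median change of 1.04 (exact sign test, adjusted p = 1.97e-19). Os03g0299700 was higher in 16 of 16 lines, with means of 46.8 ± 23.3 and 76.9 ± 30.9 CPM (SD, n = 16) and a median change of 0.89 (exact sign test, adjusted p = 7.79e-05). Both rises were also called by total counts, at 0.95 and 0.73. The largest fall was in Os01g0373400, higher in only 7 of 82 lines, with means of 5.77 ± 1.13 and 4.18 ± 0.890 CPM (SD, n = 82) and a median change of -0.48 (exact sign test, adjusted p = 1.59e-14). Os04g0323800 was higher in 4 of 45 lines, with a median change of -0.41 (exact sign test, adjusted p = 3.69e-08). By total counts these falls were -0.62 and -0.50.

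Members of a segment did not always share the direction of change. In the chromosome 1 segment Os01g0361000 was higher in 80 of 82 lines (median change 0.69), while Os01g0373400, Os01g0391100 and Os01g0508300 were called lower at -0.48, -0.34 and -0.33, and all 4 calls held by total counts. On chromosome 4 Os04g0323800 fell by 0.41 while Os04g0330200 of the same segment rose by 0.30, and by total counts they changed by -0.50 and 0.22. Os01g0320700 and Os01g0324400, called lower at -0.40 and -0.38, had values of 0.09 and 0.11 among the 30 lines with the deepest 2022 libraries, and -0.48 and -0.56 among the other 70.

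**Figure D5:**
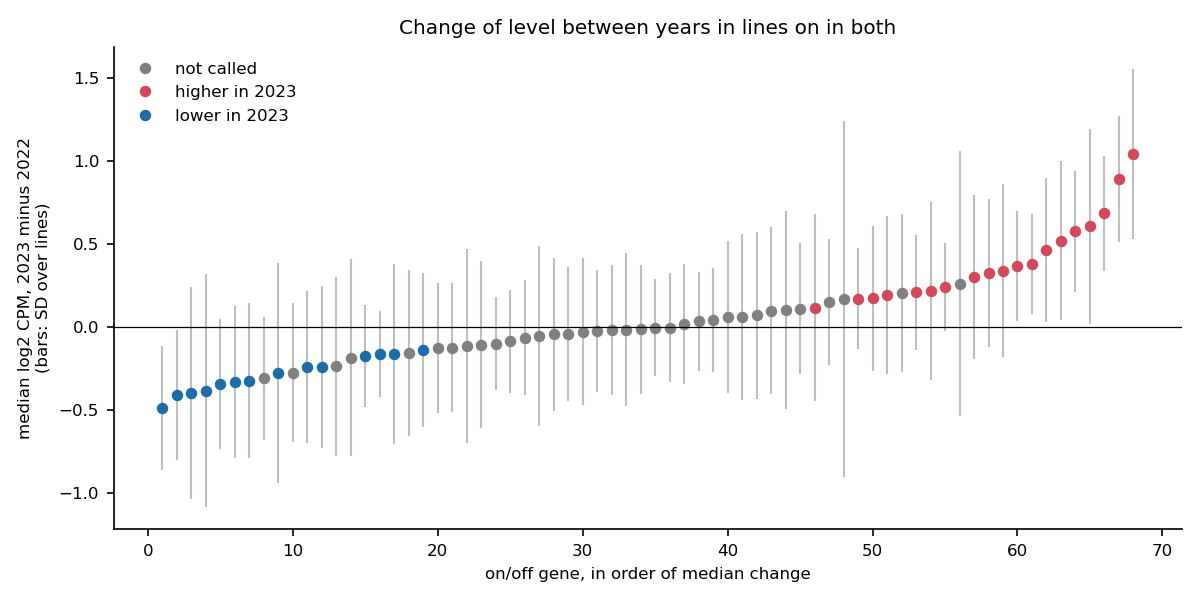
Median change in log2 CPM with TMM factors, 2023 minus 2022, over the lines on in both years, for each of the 68 on/off genes in order of the change; bars are the SD over lines and colours mark genes called by the exact sign test (adjusted p under 0.05). The medians run from -0.48 to 1.04, with 19 genes called higher and 14 lower; by total counts 10 are called higher and 24 lower.

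Among on lines, the level of some members repeated between the years. Pearson's r of log2 CPM over lines on in both years, tested with 100000 permutations and adjusted over 222 on/off genes of all chromosomes, was called in 30 of 68 members (44.1%), against 50% of all 222. The median r was 0.264 in members and 0.315 over all. By Spearman's rho as well, 12 members (17.6%) passed, against 25.7% of all 222. Of the 30, 12 had an r under 0.3 once the 2 lines farthest from the 2022 median were left out.

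The clearest was Os01g0148400, with an r of 0.886 and a rho of 0.787 over 41 lines (permutation test, adjusted p = 9.65e-05 and 0.000131), and an r of 0.864 without the 2 farthest lines. Its on lines ran from 10.3 to 47.0 CPM in 2022 and from 7.68 to 38.0 CPM in 2023. Os03g0299700 had an r of 0.915 and a rho of 0.75 over 16 lines (permutation test, adjusted p = 0.000164 and 0.00642), with an r of 0.767 without 2 lines. In Os03g0855700 an r of 0.789 over 73 lines (permutation test, adjusted p = 9.65e-05) stood beside a rho of 0.152 (permutation test, adjusted p = 0.334). Its rho was 0.587 with a trend over the column position of the libraries removed. It was 0.476 among 24 on lines of the 30 with the deepest 2022 libraries and 0.277 among 49 of the other 70. In Os04g0355401 an r of 0.629 over 29 lines became -0.0262 without the 2 farthest lines, on which it rested.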

How the data were processed

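The deposited tables, 1 per year, hold raw counts per gene identifier for each library, and the authors' table name, per the labels, says that unique reads in exons were counted. Per the submitters' processing notes, the build is IRGSP-1.0. Aligner and read counter: not given in the sources used here. Reads of all lines were therefore counted against a single reference. Which members have near-identical copies was not examined. Whether 0 counts meant no RNA or reads that were not assigned to the gene was not tested. Columns of 2023 were matched to samples through the library names in the labels, and 0 columns had no sample. A line kept its number from 2022 to 2023, so the number pairs its libraries.

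CPM was scaled to the column total. Levels were tested with edgeR 4.0.16 in R 4.3.3 (quasi-likelihood F test, filterByExpr by year, TMM factors, year as the sole term), and DESeq2 1.42.0 and the line number as a block were alternatives. The block fit used a common dispersion, estimated from the 500 most abundant genes. The SE given with an edgeR change was derived from its test, as the absolute log2 change over the square root of F. Fisher and sign tests ran in scipy 1.17.1 and permutation tests in numpy 2.4.6, each adjusted by Benjamini-Hochberg over all genes tested and called at an adjusted p under 0.05. The scripts for the year fit and the sign test were tested on simulated data. The sequencing depth of a library sets what an off call can show. With 1 library per line and year, the tests run over lines, and no p-value measures the spread between plots or libraries of the same line and year. The year fit with year as the sole term did not pair the libraries of a line.

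Named genes were, by rule, the member with the highest median CPM over on lines in each of the 10 largest segments and its counterpart in opposite phase, the 5 members with the highest such median, the 3 with the fewest and the 3 with the most agreeing lines, the 3 on in the fewest and the 3 on in the most lines, the 2 largest called rises and the 2 largest falls, and the 3 genes nearest each side of the limit between the thresholds. Of the gene lists for blast resistance and diterpenoid phytoalexins, 0 genes were members. The lists were short and only 68 of 20418 genes were members, so this 0 carries no result about these families. Other members are named where a count or a switch turned on them, and were chosen after their values were seen. The members, lists and tests were chosen with earlier results of these data known.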

Additional observations from a re-analysis of the deposited data

How the results depend on the processing

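The member count, 68 as given, was 58 with a lower threshold of 0.1 CPM, 92 and 36 with upper thresholds of 1 and 5 CPM, 54 and 83 with at most 5 or 20 lines between, 67 with TMM factors, 56 after thinning each library to the smallest total, and 66 in both the 30 lines with the deepest 2022 libraries and the other 70. Switches from on to off, alternatives added after seeing the data, numbered 18 at thresholds of 0.2 and 5 CPM, 54 with a single threshold of 1 CPM, 6 in the 30 lines, 29 in the other 70 and 152 on chromosomes 6 to 12. Switches from off to on were 8 with the single threshold and 1 on chromosomes 6 to 12, and 0 under the other alternatives. Segments numbered 12 to 15 under each alternative, with 39 to 50 members.

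In the year fit, 2 members were higher and 6 lower by total counts, 1 and 0 in the 30 lines, and 2 and 2 in the other 70. With the line number as replicate block, which pairs the libraries of a line, 10 were higher and 15 lower. The sign test within on lines called 10 higher and 24 lower by total counts, and 9 and 6 in the 30 lines. Os05g0571300 reversed to -0.0066 by total counts. Repeatable levels numbered 11 in the 30 lines and 18 in the other 70, and the r of Os02g0824800 was -0.124 in the 30. Fewer lines were tested in both subsets, and the cause of the other shifts was not tested. Leaving out single replicates was not run, since each year had 100 lines. Depth limits the off calls: in the smallest library a gene at 0.2 CPM is under 1 count.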
